A study of Homo sapiens with 6 samples.

Results

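The RAS and RAF genes described here were HRAS, NRAS, RRAS, RRAS2, MRAS, ARAF, BRAF and NF1, 8 of the 58735 genes in the deposited count table, taken by their gene symbols. All 8 passed the filter on low counts that left 16655 genes for testing, and the lowest count of any of them in any library was 64. The remaining classical RAS and RAF genes were not analysed here. RNA sequencing was done on T3M4, an established human pancreatic ductal adenocarcinoma cell line, in 3 libraries labelled MUC16 knockout (KO, titled T3M4M16) and 3 labelled MUC16 expressing (WT, titled T3M4WT), all from untreated cells grown in serum-containing medium. MUC16 is a large mucin anchored in epithelial membranes, and the study set cells without it beside cells that have it. How the gene was disrupted and whether the knockout is 1 clone are not given in the labels. Neither is whether replicates are separate cultures, and p-values then cover only the spread between these libraries, which may be technical.

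RAS proteins are small GTPases that pass growth signals from receptors at the membrane to kinases in the cell. They are on when bound to GTP and off when bound to GDP. Exchange factors load them with GTP, and GTPase-activating proteins such as neurofibromin, the product of NF1, return them to the GDP state. Active RAS recruits RAF kinases, which start the MEK and ERK kinase cascade. The pathway is known for its part in pancreatic ductal adenocarcinoma, where an activating RAS mutation is the usual first driver. HRAS and NRAS belong to the classical RAS proteins. RRAS, RRAS2 and MRAS form the R-RAS branch, of which RRAS is known for its effect on integrins and cell adhesion and MRAS for a phosphatase complex with SHOC2 that removes an inhibitory phosphate from RAF.

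How much unbroken sequence related genes share bears on whether reads of one can be counted for another. Over whole coding regions of the GENCODE release 29 principal transcripts, the closest pair of GTPases was HRAS and NRAS, identical at 73.0% of aligned bases, and the 10 pairs ran from 55.9% to 73.0%. The longest run of bases shared by the principal transcripts of any pair of these GTPases was 23 bases, between RRAS and RRAS2, and ARAF and BRAF shared at most 21 bases. Pseudogenes are closer relatives. BRAFP1 shares a run of 111 bases with BRAF and had 0, 1 and 1 counts in the libraries labelled KO and 4, 0 and 0 in those labelled WT. The 12 NF1 pseudogenes in the table took 38, 50 and 51 counts in the libraries labelled KO and 33, 46 and 25 in those labelled WT, at most 2.51% of the counts of NF1 in the same library. The 3 ARAF pseudogenes had 0 counts in every library. Reads that fit both a gene and its pseudogene may have been handled either way, since the counting method is not given in the sources used here.

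Library totals ran from 19088927 to 28612621 counts. MUC16 RNA was higher in the libraries labelled KO, at 14.9, 19.6 and 11.0 CPM (read counts scaled by library total and TMM factor), than in those labelled WT, at 3.72, 5.35 and 4.03 CPM (log2 fold change 1.79 ± 0.17, SE, adjusted p = 4.79e-09 by edgeR's quasi-likelihood test). The targeted gene thus went against the labels at the RNA level, and directions below are given for libraries as labelled, KO over WT. All 6 epithelial markers examined were present, with a summed level of 5491 to 5756 CPM in the libraries labelled KO and 3488 to 3567 CPM in those labelled WT. Of 7 fibroblast, 5 leukocyte and 4 endothelial markers, 3, 1 and 3 passed the filter. The 9 that did not pass had at most 8 counts in any library, and none of the 16 was at 0 in all libraries. Their summed levels were 42.9 to 47.2 CPM (fibroblast), 3.38 to 4.45 CPM (leukocyte) and 19.7 to 22.0 CPM (endothelial) in the libraries labelled KO, against 31.6 to 34.7, 2.64 to 2.86 and 13.4 to 16.6 CPM in those labelled WT. COL1A1 made up most of the fibroblast sum and PECAM1 most of the endothelial one. The part of these markers in the results below was not tested.

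The RAS-related GTPases split, while neither RAF kinase nor NF1 passed the test. MRAS and RRAS were higher in the libraries labelled KO, by 2.26-fold and 1.64-fold, and HRAS was lower, at 0.782 times the WT level. NRAS, RRAS2, ARAF, BRAF and NF1 did not pass the test. In all, 3 of 8 genes were called, 2 higher and 1 lower, or 37.5% (edgeR quasi-likelihood, Benjamini-Hochberg adjusted over all genes tested, threshold 0.05). Of all genes tested, 52.6% were called, 26.7% higher and 25.9% lower, so these genes were called no more often than genes at large. Their median log2 fold change was -0.04, against 0.0035 for all genes tested, and their median absolute log2 fold change was 0.12, against 0.28. Every member but MRAS was above 16 CPM in every library. Of all tested genes at 16 to 64 CPM, 58.9% were called, and their median absolute log2 fold change was 0.203. Above 64 CPM these values were 71.9% and 0.206. The libraries of the 2 groups did not overlap for the 3 called genes and overlapped for the other 5, where 59% of all genes tested had groups that did not overlap.

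**Figure D1:**
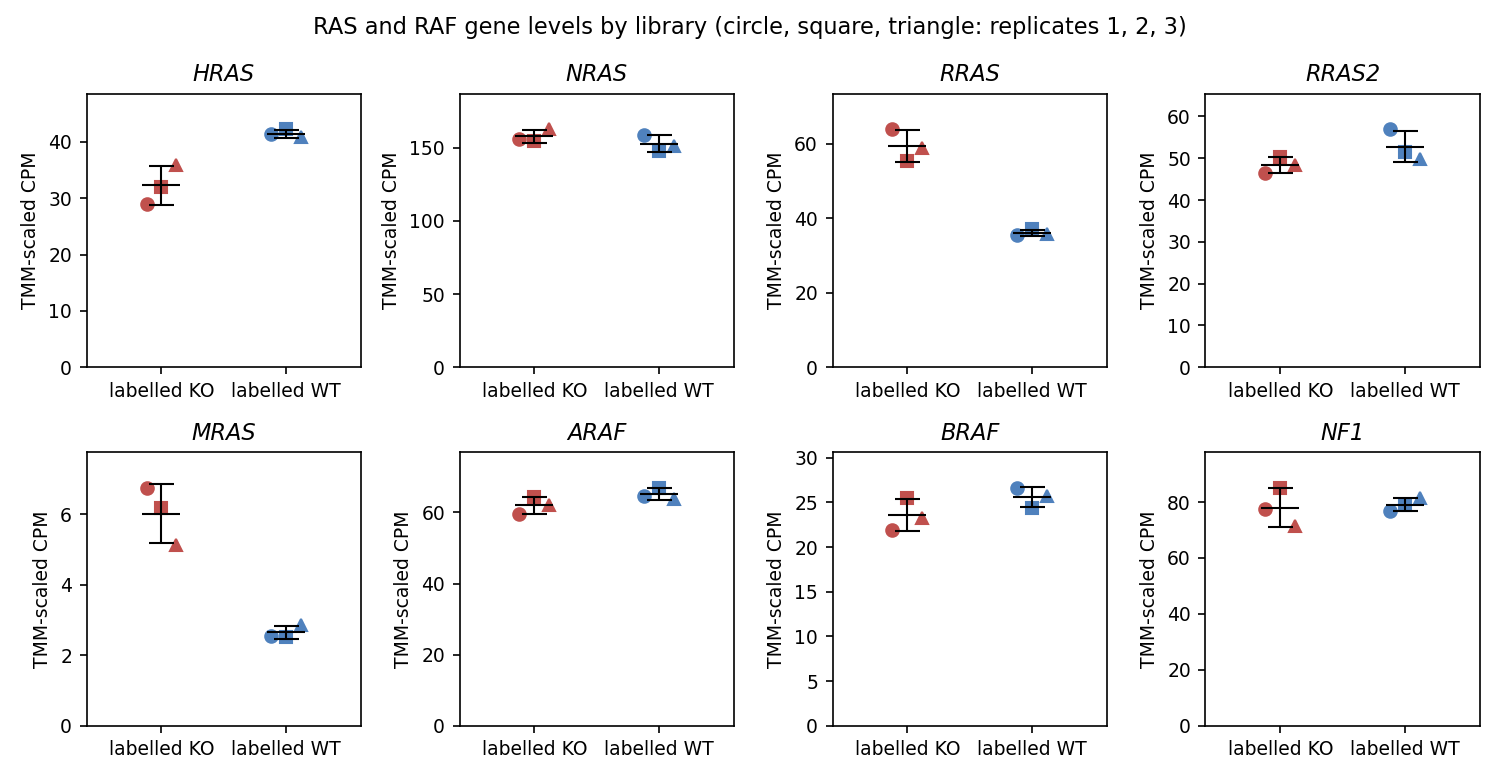
Level of each gene in TMM-scaled CPM (vertical axis from 0) in the 3 libraries labelled KO (left, red) and the 3 labelled WT (right, blue), with the mean and SD in black. The groups are apart for HRAS, RRAS and MRAS and overlap for NRAS, RRAS2, ARAF, BRAF and NF1.

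HRAS (ENSG00000174775, GRCh38 chromosome 11, 532242 to 537287, minus strand), a classical RAS GTPase, had 29.02, 31.98 and 35.92 CPM in the libraries labelled KO and 41.3, 42.3 and 40.8 CPM in those labelled WT. Every library labelled KO was below every library labelled WT, and the KO libraries were more spread. HRAS averaged 32.3 ± 3.46 CPM in the libraries labelled KO and 41.5 ± 0.725 CPM in those labelled WT (SD, n = 3 each), a log2 fold change of -0.35 ± 0.07 (SE, edgeR quasi-likelihood, adjusted p = 0.000161). In raw counts these were 567, 822 and 1052 in the libraries labelled KO and 1089, 1137 and 911 in those labelled WT. Among the KO libraries the HRAS level stood in the order of the library totals, lowest in the smallest library, KO replicate 1. Without that library the log2 fold change was -0.29 (adjusted p = 0.00215), and over all 16 alternative settings the adjusted p ran from 4.2e-07 to 0.00215.

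NRAS (ENSG00000213281, chromosome 1, 114704469 to 114716894, minus strand), the other classical RAS gene examined, had 156, 155 and 163 CPM in the libraries labelled KO and 159, 148 and 151 CPM in those labelled WT. The groups overlapped, and the log2 fold change of 0.05 ± 0.04 (SE) did not pass the test (edgeR quasi-likelihood, adjusted p = 0.385). Its 95% interval ran from 0.974-fold to 1.10-fold. Cyclic loess scaling, which adjusts by expression level, ended that: NRAS was then called higher, with a log2 fold change of 0.15 (limma-trend, adjusted p = 0.00672, against 0.00672 to 0.763 over all alternatives). The ratio of NRAS to HRAS within a library does not depend on the scaling factor. Per kilobase of gene it was 2.24, 2.02 and 1.89 in the libraries labelled KO and 1.6, 1.46 and 1.54 in those labelled WT. The KO ratios were all above the WT ratios, by 0.41 on the log2 scale (two-sided exact permutation test, p = 0.1, the smallest that 3 libraries against 3 can give).

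RRAS (ENSG00000126458, chromosome 19, 49635292 to 49640201, minus strand), the R-RAS gene linked to integrin function, had 63.9, 55.4 and 58.8 CPM in the libraries labelled KO and 35.4, 37.1 and 35.8 CPM in those labelled WT. The lowest KO library was well above the highest WT library. RRAS averaged 59.4 ± 4.27 CPM in the libraries labelled KO and 36.1 ± 0.888 CPM in those labelled WT (SD, n = 3 each), a log2 fold change of 0.72 ± 0.06 (SE, edgeR quasi-likelihood, adjusted p = 8.18e-10). It had the smallest p of the 8 genes and ranked 637 by p among the 16655 genes tested. MUC16 lies on the same chromosome, far from RRAS, at 8848844 to 8981342. Of the 2 tested genes on each side of RRAS, named after their values were seen, PRRG2 was higher (log2 fold change 0.55 ± 0.09, SE, adjusted p = 3.25e-05), and PRR12, SCAF1 and IRF3 did not pass the test (0.04, -0.08 and -0.03).

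MRAS (ENSG00000158186, chromosome 3, 138347648 to 138405534, plus strand), partner of SHOC2, had the fewest counts of the 8 and the largest absolute fold change. It had 132, 159 and 150 counts in the libraries labelled KO and 67, 68 and 64 in those labelled WT, or 6.75, 6.19 and 5.12 CPM against 2.54, 2.53 and 2.87 CPM. The groups did not overlap, and the log2 fold change was 1.18 ± 0.16 (SE, edgeR quasi-likelihood, adjusted p = 1.38e-06), with a 95% interval from 1.82-fold to 2.81-fold. Fold changes varied with the level of the gene across the whole table. Among the 2881 tested genes at 4 to 16 CPM the median log2 fold change was 0.09 and 34.5% were called higher, and at 1 to 4 CPM the median was 0.26 and 32% were called higher. Among the 3869 genes above 64 CPM the median was -0.11, with 22.0% called higher and 49.9% called lower. With cyclic loess the log2 fold change of MRAS was 0.99 and stayed past the threshold.

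RRAS2 (ENSG00000133818, chromosome 11, 14277926 to 14364506, minus strand), the third R-RAS gene, had 46.5, 50.3 and 48.4 CPM in the libraries labelled KO and 57.0, 51.5 and 49.9 CPM in those labelled WT. The groups overlapped by 1 WT library, and the log2 fold change of -0.13 ± 0.06 (SE) did not pass the test (edgeR quasi-likelihood, unadjusted p = 0.046, adjusted p = 0.0813, lowest adjusted p over the alternatives 0.0505). Leaving out a library did not bring it past the threshold in any of 6 cases.

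**Figure D2:**
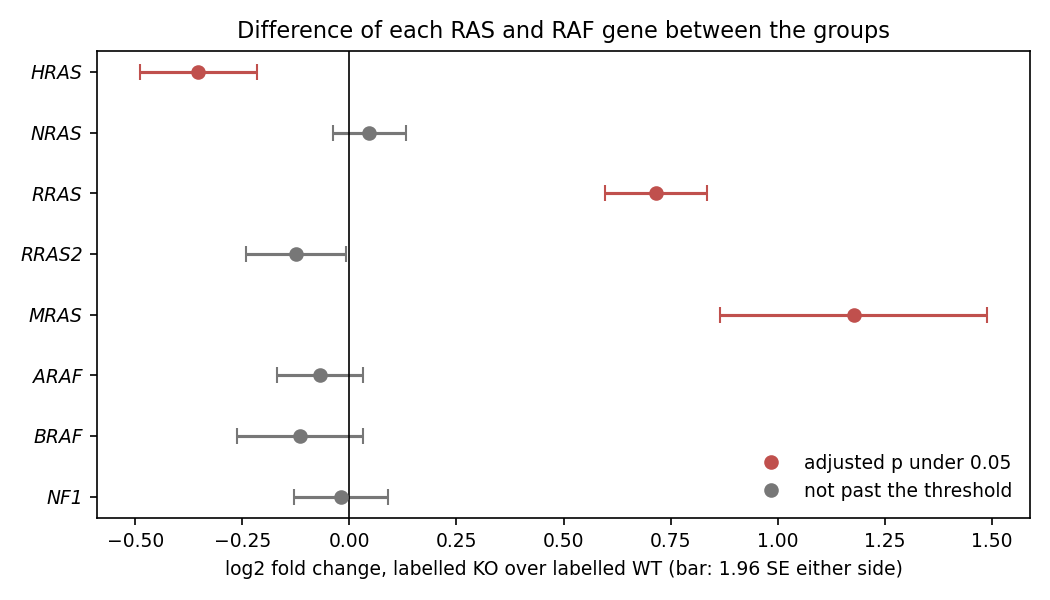
Log2 fold change of each gene, libraries labelled KO over those labelled WT (horizontal axis), with bars for the 95% interval. MRAS (1.18) and RRAS (0.72) lie to the right of 0 and HRAS (-0.35) to the left, and the grey genes did not pass the adjusted threshold.

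ARAF (ENSG00000078061, chromosome X, 47561100 to 47571920, plus strand) and BRAF (ENSG00000157764, chromosome 7, 140719327 to 140924928, minus strand) code for the RAF kinases examined, which phosphorylate MEK. ARAF had 59.5, 64.4 and 62.1 CPM in the libraries labelled KO and 64.6, 67.0 and 63.7 CPM in those labelled WT (log2 fold change -0.07 ± 0.05, SE, edgeR quasi-likelihood, adjusted p = 0.266). BRAF had 21.95, 25.5 and 23.2 CPM in the libraries labelled KO and 26.6, 24.4 and 25.7 CPM in those labelled WT (-0.12 ± 0.07, adjusted p = 0.205). Both sets of values overlapped between the groups. The 95% intervals ran from 0.889-fold to 1.02-fold for ARAF and from 0.834-fold to 1.02-fold for BRAF. Per kilobase, the log2 ratio of BRAF to ARAF averaged -4.13 ± 0.0549 in the libraries labelled KO and -4.08 ± 0.096 in those labelled WT (SD, n = 3 each, two-sided exact permutation p = 0.5). How reads were assigned to strands is not stated in the sources used here, and 3464 bases of BRAF overlap NDUFB2 on the opposite strand. NDUFB2, a respiratory chain gene, had 968 to 1417 counts in the libraries labelled KO and 1202 to 1436 in those labelled WT. NDUFB2 itself did not pass the test (log2 fold change -0.12 ± 0.05, SE, adjusted p = 0.0572). ARAF overlaps SYN1 by 23 bases, and SYN1 had at most 22 counts.

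NF1 (ENSG00000196712, chromosome 17, 31094927 to 31382116, plus strand) codes for neurofibromin, which turns RAS off. It had 77.5, 85.1 and 71.4 CPM in the libraries labelled KO and 76.7, 79.0 and 81.4 CPM in those labelled WT. The KO libraries held both the highest and the lowest value. The log2 fold change was -0.02 ± 0.06 (SE, edgeR quasi-likelihood, adjusted p = 0.796), with a 95% interval from 0.914-fold to 1.06-fold, and its sign turned with upper-quartile factors, cyclic loess and a stricter filter and without KO replicate 3 (0.05). Of the 7 genes that overlap NF1, the processed pseudogene AK4P1, on the same strand, had the most counts, 215 to 226 in the libraries labelled KO and 168 to 221 in those labelled WT.

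Levels were compared between genes only per kilobase of gene length. In the libraries labelled KO, RRAS was highest at 51.2 ± 3.68 CPM per kb, followed by NRAS at 35.5 ± 0.973 (SD, n = 3 each). ARAF (17.5 ± 0.697), HRAS (17.4 ± 1.87) and RRAS2 (14 ± 0.542) came next, of which ARAF and HRAS did not differ beyond their spread, and NF1 (2.88 ± 0.253), BRAF (1.01 ± 0.0772) and MRAS (0.946 ± 0.13) were lowest, the last pair within their spread. In the libraries labelled WT, NRAS led at 34.4 ± 1.28 CPM per kb, then RRAS at 31.1 ± 0.765 and HRAS at 22.4 ± 0.391. ARAF (18.4 ± 0.473), RRAS2 (15.3 ± 1.07), NF1 (2.91 ± 0.0881), BRAF (1.09 ± 0.0485) and MRAS (0.416 ± 0.0303) followed. The first place was thus held by RRAS in the libraries labelled KO and by NRAS in those labelled WT.

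The gene lengths in the authors' table join the exons of all transcripts, 23432 bases for BRAF and 27130 for NF1, which lowers their values per kilobase. With the length of the principal transcript instead, chosen after the data were seen, RRAS was still highest in the libraries labelled KO, at 56.9 ± 4.09 CPM per kb. In the libraries labelled WT, HRAS (36.0 ± 0.63), RRAS2 (34.8 ± 2.44), RRAS (34.6 ± 0.85) and NRAS (34.4 ± 1.28) then lay close together, and RRAS2, RRAS and NRAS did not differ beyond their spread. BRAF stood at 3.65 ± 0.28 CPM per kb in the libraries labelled KO and 3.96 ± 0.176 in those labelled WT, above MRAS at 1.33 ± 0.183 and 0.583 ± 0.0425. The order among the GTPases in the WT libraries therefore depends on the length used.

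**Figure D3:**
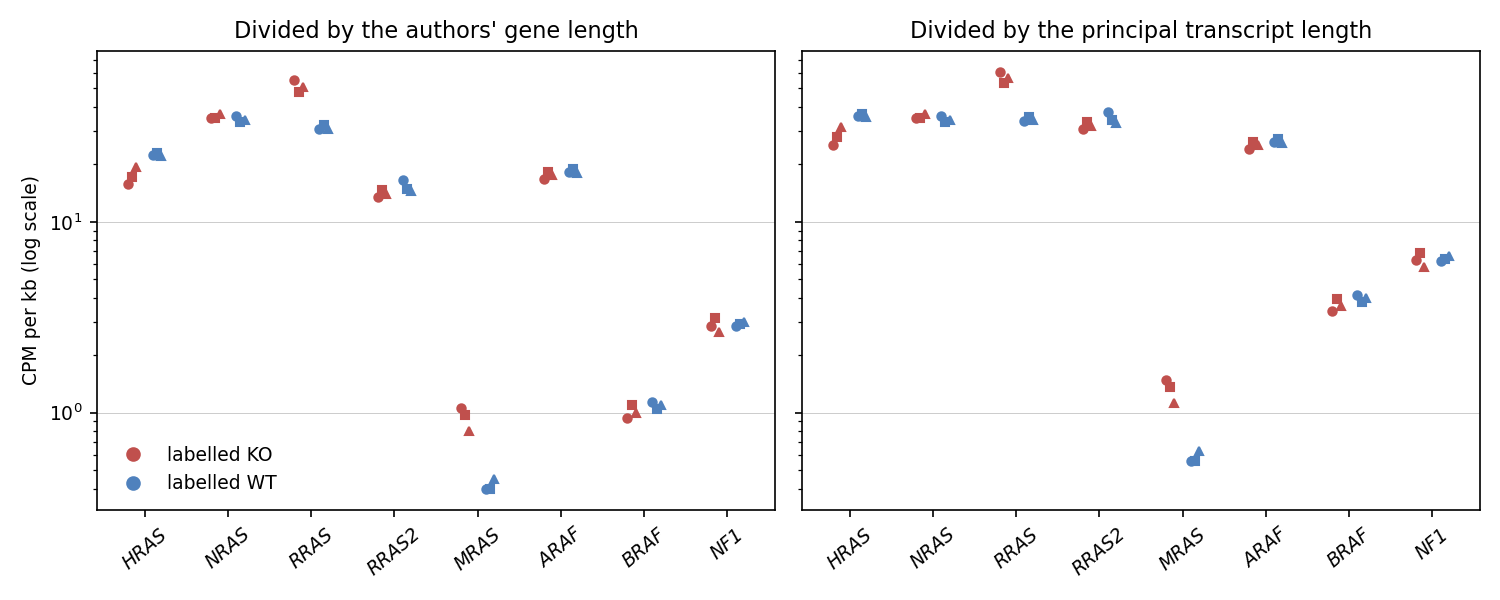
Level per kilobase of the 8 genes in each library (CPM per kb, log scale; red, libraries labelled KO; blue, labelled WT; circle, square and triangle, replicates 1, 2 and 3), divided by the authors' gene length on the left and by the principal transcript length on the right. RRAS stands above the other genes in the KO libraries on both scales, and MRAS is lowest of the GTPases.

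Shares of the summed level per kilobase of the 5 GTPases were taken with the authors' gene length. RRAS took 43.0% ± 2.43 in the libraries labelled KO and 30.0% ± 1.04 in those labelled WT (SD, n = 3 each). HRAS took 14.6% ± 1.48 in the libraries labelled KO and 21.6% ± 0.457 in those labelled WT. MRAS stayed under 1% in every library, at 0.795% ± 0.117 in those labelled KO and 0.402% ± 0.036 in those labelled WT. The summed level of the 5 was 119 ± 3.26 CPM per kb in the libraries labelled KO and 104 ± 1.88 in those labelled WT. A share falls when another gene's level rises, so the NRAS share of 29.8% ± 0.614 in the libraries labelled KO, against 33.2% ± 0.887 in those labelled WT, stands beside an NRAS level that did not pass the test. With the principal transcript length, RRAS took 37.0% in the libraries labelled KO and 24.6% in those labelled WT, and HRAS 18.3% and 25.7%. NRAS then took 23.1% and 24.5%, and the summed level was 154 and 140 CPM per kb. In bulk RNA, fewer cells expressing a gene and less RNA per cell cannot be told apart.

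The promoter sequences of the called genes HRAS and MRAS and of NRAS, which did not pass the test, are shown as examples of a lower, a higher and an uncalled gene. Each is the 250 bases before a transcript start, from RefSeq on GRCh38.p14, where 7 of the 8 genes had an entry. Capitals mark GC boxes (GGGCGG on either strand) in HRAS and NRAS, and in MRAS a TATAA and a GGAATG that overlap by no base and adjoin. The MRAS entry is the nearest of 3 to the principal transcript's start, 882 bases away from it. The spans are chr11:535577-535826 on the minus strand, chr3:138348329-138348578 on the plus strand and chr1:114716772-114717021 on the minus strand.
HRAS: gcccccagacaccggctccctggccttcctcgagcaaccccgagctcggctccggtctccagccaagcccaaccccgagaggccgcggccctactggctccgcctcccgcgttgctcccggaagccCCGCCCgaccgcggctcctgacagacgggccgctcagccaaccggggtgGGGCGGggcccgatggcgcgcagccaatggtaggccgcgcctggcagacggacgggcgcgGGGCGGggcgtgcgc
MRAS: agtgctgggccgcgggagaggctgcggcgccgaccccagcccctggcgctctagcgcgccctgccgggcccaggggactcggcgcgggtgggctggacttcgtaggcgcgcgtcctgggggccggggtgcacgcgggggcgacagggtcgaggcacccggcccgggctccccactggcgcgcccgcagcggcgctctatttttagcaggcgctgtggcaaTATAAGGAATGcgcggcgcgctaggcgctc
NRAS: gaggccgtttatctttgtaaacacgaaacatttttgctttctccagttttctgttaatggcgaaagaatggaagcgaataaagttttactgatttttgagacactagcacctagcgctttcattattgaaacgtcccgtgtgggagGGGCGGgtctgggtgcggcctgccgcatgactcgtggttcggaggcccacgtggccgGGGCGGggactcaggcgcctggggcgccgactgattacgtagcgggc

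HRAS had 3 GC boxes in this window, NRAS and RRAS2 had 2 each, and MRAS, ARAF, BRAF and NF1 had none, where 42.6% of the 35116 promoters of the same length in the table held at least 1. GC content was 77.2% in HRAS, 75.6% in MRAS and 54.4% in NRAS, against a median of 58.0% over all promoters. The TATAA of MRAS occurs on either strand in 18.9% of all promoters, and GGAATG, the core of sites bound by TEAD factors, in 11.9%. ARAF, which did not pass the test, also held a GGAATG. The AP-1 motif TGANTCA, which 6.57% of promoters hold, was in none of the 7 promoters searched. The E-box CACGTG (6.34% of promoters) was found once in NRAS, inside which lie both of its matches to ACGTG, 1 on each strand, the core of hypoxia elements (18.5%), which ARAF also held once. CCAAT (32% of promoters) was found in HRAS, ARAF and BRAF, and the ETS core CCGGAA (14.5%) in HRAS and ARAF. These are matches of letters and not measured sites.

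Around these genes, 123 genes of the pathway in 10 lists by role were read from the same fit. Of the 111 that were tested, 34 were higher and 32 lower in the libraries labelled KO, or 59.5% called, beside 52.6% of all genes tested. Their median log2 fold change was 0.00018, against 0.0035 for all genes tested.

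Among other RAS-family GTPases the calls were all upward. Of 17 tested, 6 were higher and 0 lower (median log2 fold change 0.04), or 35.3% called, beside 52.6% of all genes tested. RIT1, a GTPase close to RAS that also feeds the ERK pathway, averaged 44.0 ± 2.62 CPM in the libraries labelled KO and 25.9 ± 0.541 CPM in those labelled WT (SD, n = 3 each, log2 fold change 0.77 ± 0.07, SE, edgeR quasi-likelihood, adjusted p = 8.33e-10). RAP2B (0.20) and NKIRAS2 (0.18), a Ras-like inhibitor of NF-kB signalling, were also higher. NKIRAS2 lost its call without KO replicate 1 (edgeR quasi-likelihood, adjusted p = 0.0815) or WT replicate 1 (0.0569), in a range of 0.00184 to 0.0815 over all alternatives. The other 3 called were weakly expressed, DIRAS1, DIRAS3 and RASD2, named here after their values were seen, at 2.33, 0.946 and 0.776 CPM in the libraries labelled KO and 0.831, 0.244 and 0.173 CPM in those labelled WT. With a stricter filter, which drops weakly expressed genes, 3 of the list were called.

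Upstream of RAS, exchange factors were 3 higher and 1 lower of 6 tested (66.7% called, beside 52.6% of all genes tested, median 0.725). SOS2, which loads RAS with GTP downstream of receptors, averaged 31.1 ± 2.85 CPM in the libraries labelled KO and 18.01 ± 1.82 CPM in those labelled WT (log2 fold change 0.79 ± 0.08, SE, edgeR quasi-likelihood, adjusted p = 4.16e-08). Its paralog SOS1, named after its values were seen, did not pass the test (-0.02). The other calls, RASGRP2 and RASGRP3 higher and RASGRF2 lower, were of genes under 5 CPM and are named after their values were seen. Such weakly expressed genes leaned upward across the whole table. The list had 2 calls without KO replicate 3, 2 without WT replicate 1, 2 without WT replicate 2, and 2 each with DESeq2, cyclic loess, a stricter filter and a threshold of 0.01. Receptor adaptors were 7 higher and 4 lower of 12 (91.7% called, median 0.49). Their summed level was nonetheless lower, at 1164 to 1237 CPM in the libraries labelled KO and 1297 to 1336 CPM in those labelled WT. The ubiquitin ligase CBLB (0.80), the FGF receptor substrate FRS3 (0.58) and the docking protein GAB2 (0.52) were higher, whereas SHC1, an adaptor named after its values were seen, was lower and averaged 330 ± 18.3 CPM in the libraries labelled KO and 429 ± 11.0 CPM in those labelled WT (-0.38 ± 0.04, and -0.25 with cyclic loess).

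Genes that turn RAS off went both ways. Of 7 other GTPase-activating proteins tested, 1 was higher and 3 lower (57.1% called, beside 52.6% of all genes tested, median -0.09). RASAL1 averaged 18.8 ± 1.86 CPM in the libraries labelled KO and 8.17 ± 1.12 CPM in those labelled WT (log2 fold change 1.19 ± 0.11, SE, edgeR quasi-likelihood, adjusted p = 2.15e-09), while RASAL2 (-0.40) and RASA3 (-0.33) were lower. RASA1, the p120 RAS GTPase-activating protein, named after its values were seen, had 53.4, 54.4 and 53.95 CPM in the libraries labelled KO and 52.6, 52.4 and 53.55 CPM in those labelled WT and did not pass the test (0.03). Of 5 neurofibromin partners and degradation factors, 0 were higher and 2 lower (median -0.0029). LZTR1, which with CUL3 marks RIT1, MRAS and other RAS proteins for degradation, averaged 15.6 ± 1.3 CPM in the libraries labelled KO and 19.2 ± 0.879 CPM in those labelled WT (-0.30 ± 0.08, adjusted p = 0.00483). SPRED1, which brings neurofibromin to the membrane, was lower by less (-0.15, adjusted p = 0.0157), and without KO replicate 1 or WT replicate 3 it was not called, which left 1 call in the list, nor with upper-quartile factors (-0.09), cyclic loess (-0.08) or a threshold of 0.01.

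**Figure D4:**
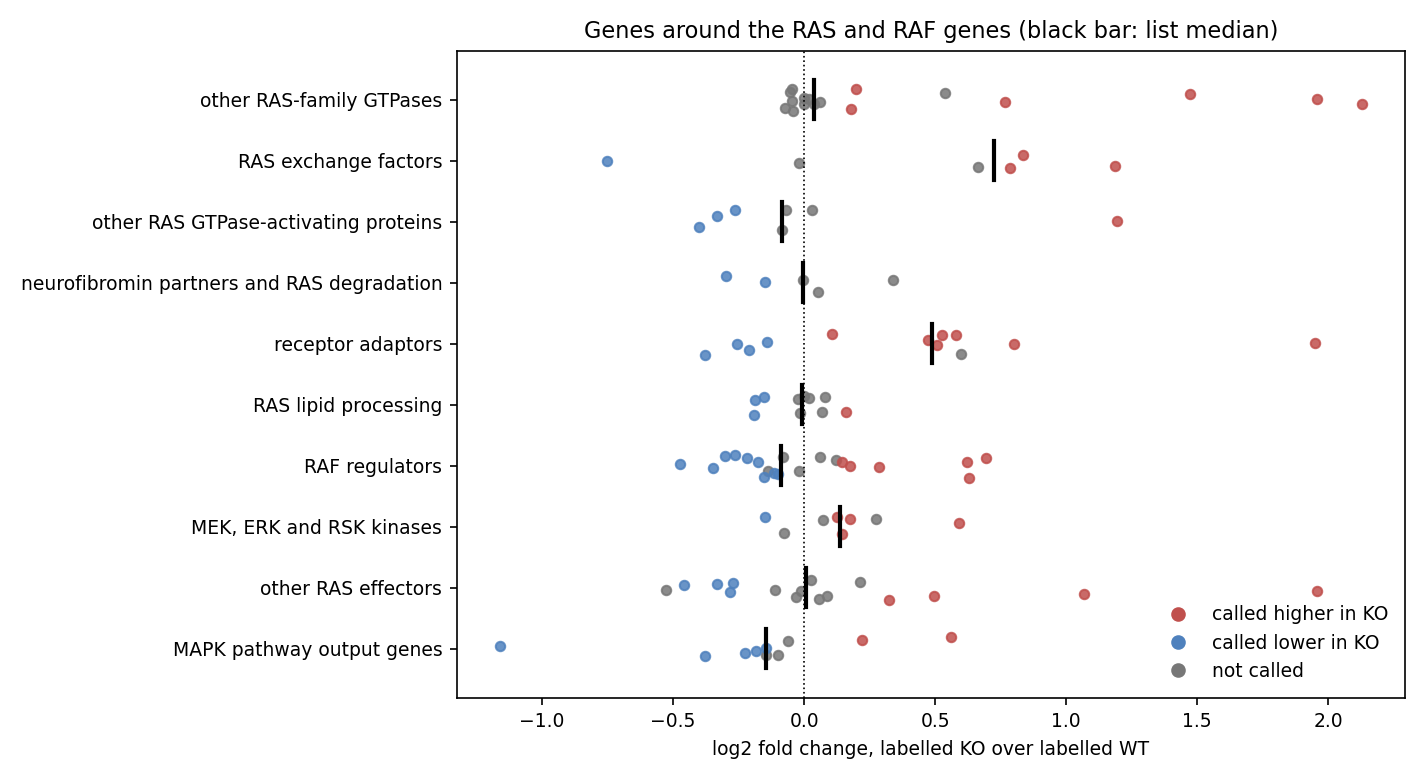
Log2 fold change of every tested gene in 10 lists around the RAS and RAF genes (horizontal axis; red, called higher in the libraries labelled KO; blue, called lower; grey, not called), 1 row per list, with the list median as a black bar. Calls lie on both sides of 0 in most lists. Receptor adaptors (12 tested genes) and exchange factors (6 tested genes) have the highest medians, 0.489 and 0.725. The exchange factors other than SOS1 and SOS2 were weakly expressed, and such genes leaned upward across the whole table (median 0.262 at 1 to 4 CPM). A median gives each gene the same weight, and the summed level of the receptor adaptors was lower in the libraries labelled KO.

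RAS proteins reach the membrane after lipid processing, and of 10 such genes 1 was higher and 3 lower (median -0.0080). The carboxyl methyltransferase ICMT (-0.19) and the depalmitoylating enzyme LYPLA1 (-0.19) were lower. With cyclic loess neither was called (-0.07 and -0.10). GOLGA7, which helps palmitoylate HRAS and NRAS, was higher (0.16, edgeR quasi-likelihood, adjusted p = 0.0416). GOLGA7 lost its call in 9 of 16 alternatives, and the list had 2 calls without WT replicate 2, with cyclic loess or with a threshold of 0.01. Regulators of RAF were 6 higher and 9 lower of 20 (75.0% called, median -0.09). The scaffold KSR1 was higher (0.63 ± 0.10, SE), and the chaperones HSP90AB1 (-0.47 ± 0.04) and HSP90AA1 (-0.35 ± 0.04), on which RAF kinases depend, were lower. Both are among the genes above 64 CPM, which had a median of -0.11, and with cyclic loess their log2 fold changes were -0.31 and -0.19, still past the threshold. SHOC2, the partner of MRAS, named after its values were seen, had 27.6, 27.6 and 29.1 CPM in the libraries labelled KO and 30.4, 28.5 and 30.3 CPM in those labelled WT and did not pass the test (-0.08, adjusted p = 0.334). The phosphatase subunit PPP1CB of the same complex, named after its values were seen, was higher (0.29 ± 0.04, edgeR quasi-likelihood, adjusted p = 6.68e-06). Its paralogs in the list, PPP1CA (0.06) and PPP1CC (-0.02), also named after their values were seen, did not pass the test. PPP1CA and PPP1CC averaged 298 and 348 CPM in the libraries labelled KO, and PPP1CB 185 CPM. These values are not divided by gene length and do not rank the genes by level.

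Below RAF, 4 kinases were higher and 1 lower of 8 (62.5% called, beside 52.6% of all genes tested, median 0.14). MAPK3, which codes for ERK1, averaged 73.0 ± 2.58 CPM in the libraries labelled KO and 48.4 ± 4.1 CPM in those labelled WT (log2 fold change 0.59 ± 0.06, SE, edgeR quasi-likelihood, adjusted p = 1.26e-08), and MAP2K2, which codes for MEK2, was also higher (0.17), by 0.11 without WT replicate 1 (adjusted p = 0.0396, in the same test) and 0.28 with cyclic loess. The list had 3 calls without KO replicate 1, 3 without WT replicate 2, and 3 each with no filter and a threshold of 0.01. Other RAS effectors were 4 higher and 4 lower of 16 (median 0.0060). PIK3CG, a PI3 kinase catalytic subunit, averaged 29.9 ± 2.53 CPM in the libraries labelled KO and 7.66 ± 0.897 CPM in those labelled WT (log2 fold change 1.957 ± 0.095, SE, adjusted p = 6.71e-14), and RGL3 (1.07) and PIK3CD (0.50) were higher too. Of 10 genes read as output of the MAPK pathway, 2 were higher and 5 lower (70.0% called, median -0.14). The ERK feedback inhibitor SPRY4, on chromosome 5, averaged 8.09 ± 0.218 CPM in the libraries labelled KO and 18.1 ± 1.22 CPM in those labelled WT (-1.16 ± 0.09, adjusted p = 4.71e-10), and EPHA2 (-0.38) and the ERK phosphatase DUSP6 (-0.22) were also lower. Both are above 64 CPM, and with cyclic loess EPHA2 was at -0.24, DUSP6 at -0.15, and the list had 4 calls in place of 7. The 2 called higher were SPRY2 (0.22), of the same gene family as SPRY4, and EPHA4 (0.56). DUSP4 (-0.06), ETV4 (-0.10) and ETV5 (-0.14) did not pass the test. These genes are named after their values were seen.

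Among the 111 pathway genes tested, the 3 whose log2 CPM over the 6 libraries was most like that of RRAS were RASAL1 (Pearson r = 0.991), PEBP1 (0.987), a binding protein of RAF kinases, and PIK3CG (0.983). These values mainly reflect that all 4 genes were higher in the same 3 libraries, and they are given as a description over 6 points that share libraries.

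The calls of the members held across the settings tried. HRAS, RRAS and MRAS were past the threshold in the same direction in all 16 alternatives, including the 6 that each left out 1 library. The authors' deposited table gives log2 fold changes of -0.37 for HRAS, 0.70 for RRAS and 1.17 for MRAS, with adjusted p-values of 6.74e-05, 2.27e-20 and 4.03e-07, and adjusted p-values of 0.125 to 0.773 for the other 5.

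**Figure D5:**
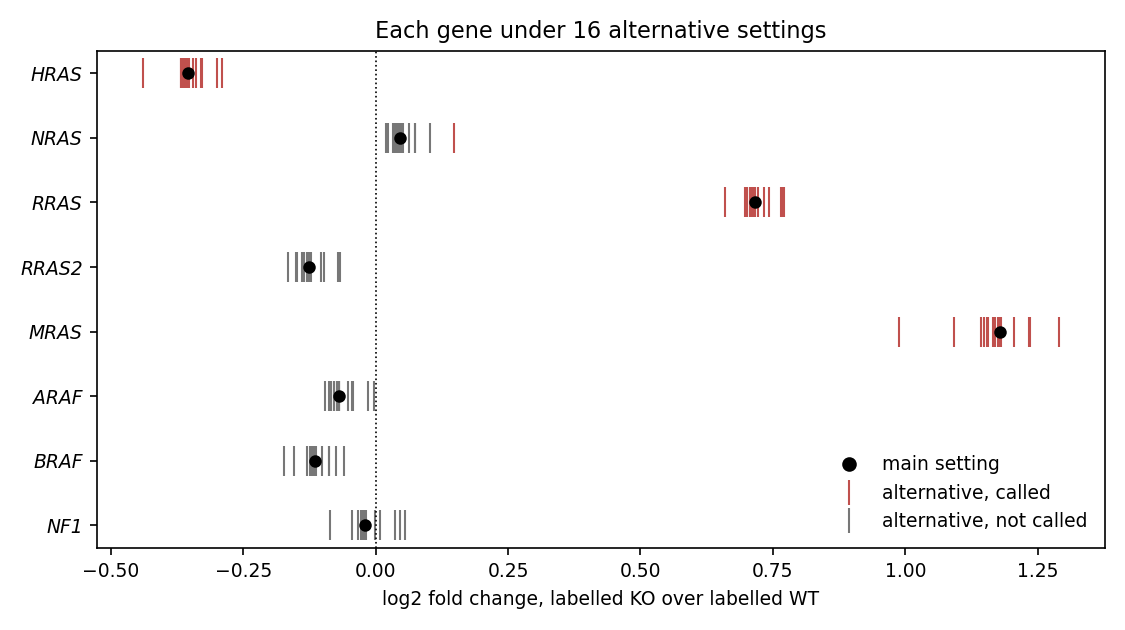
Log2 fold change of each gene, libraries labelled KO over those labelled WT, in the reported fit (black dot) and under 16 alternative settings (ticks; red where called, grey where not). HRAS stays between -0.44 and -0.29, RRAS between 0.66 and 0.77 and MRAS between 0.99 and 1.29, NRAS is called once, and NF1 lies on both sides of 0.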

How the data were processed

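Untreated T3M4 cells were sequenced after library preparation with a NEBNext Ultra kit, per the labels' protocols. The submitters' processing notes name fastp, HISAT2, STAR, DESeq, GRCh38 and hg38 with no role or version, and how reads were assigned to genes or strands is not stated. The authors deposited raw read counts per gene and library, with gene lengths. Their second table holds their own log2 fold changes and p-values, per the file headers, and is quoted as the authors' deposited table; 20 further columns of per-library or group values were not used.

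Groups follow the genotype labels. The counts of 58735 genes were tested with edgeR 4.0.16 in R 4.3.3 (glmQLFit and glmQLFTest, two-sided) in a model holding the group alone. TMM scaling and filterByExpr (minimum count 10, minimum total 15) left 16655 genes, over which the Benjamini-Hochberg adjustment ran, at a threshold of 0.05. SEs came from the quasi-likelihood F statistic, and 95% intervals assume a normal distribution. The step was also run on simulated counts in which few genes changed. Many more genes were called in these data, so that run does not test their scaling. Alternatives used DESeq2 1.42.0, limma 3.58.1, other scalings and filters, a replicate block and each library left out. No pair of libraries within a group was a duplicate (chi-square per degree of freedom 2.44 to 6.17). Transcripts and overlaps are from GENCODE release 29.

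The members, lists and rules were chosen with earlier results of these data known. Named are all members, MUC16, genes that overlap or copy a member, the 3 pathway genes most like RRAS and, per list, up to 3 called genes with the largest change and 100 or more normalised counts on average; exceptions are stated. Some items that these rules select are not reported here.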

Additional observations from a re-analysis of the deposited data

How the results depend on the processing

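Over 16 alternatives the number of members called was 3, except 4 with cyclic loess, where NRAS was called (log2 fold change 0.15). The log2 fold change of NF1 was 0.03643 with upper-quartile factors, 0.05614 with cyclic loess and 0.0077 with a stricter filter, and that of SOS1 0.0355, 0.01738 and 0.0069; the cause was not tested. Leaving out each library in turn, NF1 ran from -0.08606 to 0.04531 and SOS1 from -0.05977 to 0.01, both with a turn of sign, and between 7921 and 8221 genes were called. The NRAS to HRAS difference ran from 0.35 to 0.47 and the BRAF to ARAF difference from -0.10 to -0.01. NKIRAS2 had adjusted p-values of up to 0.0815, SPRED1 of up to 0.18 and GOLGA7 of up to 0.209. With the replicate number as a block, 8442 genes and 3 members were called, against 8759 and 3, and GOLGA7 lost its call (adjusted p = 0.0525). The labels tie same-numbered libraries by number alone. Their deviations from the group means had correlations of 0.012, 0.021 and -0.024, and not every library was most like its own number. Small correlations over all genes do not settle whether the libraries were paired. Counts of 64 to 68 for MRAS in the libraries labelled WT limit its precision.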
